A study of Mus musculus with 6 samples.

Results

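The colony-stimulating factors are secreted proteins that keep the myeloid lineage supplied, and 8 of the 32285 genes in the deposited matrices encode the mouse ligands and their receptors: Csf1, Il34, Csf2 and Csf3 for the ligands, and Csf1r, Csf2ra, Csf2rb and Csf3r for the receptors. The members were found by their symbols, and each symbol was present once in all 6 matrices. CSF1 and IL-34 share a receptor, the tyrosine kinase CSF1R, on which most tissue macrophages depend for survival. GM-CSF, the product of Csf2, binds an alpha chain (Csf2ra) paired with the common beta chain (Csf2rb), which also serves interleukin-3 and interleukin-5, and it activates macrophages, granulocytes and dendritic cells. G-CSF, the product of Csf3, acts through Csf3r to drive the production and maturation of neutrophils. In pancreatic tumours, GM-CSF from the epithelium is known to draw in and shape myeloid cells.

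The tumours came from KPC mice, a model of pancreatic ductal adenocarcinoma, trimmed of healthy pancreas and dissociated, and each of the 6 samples gave 1 single-cell library (10x Genomics Single Cell 3′ v3). All animals of both groups carried KrasLSL.G12D/+, P53LSL.R172H/+ and Pdx1-Cre, and the Pdx1 promoter directs Cre to pancreatic epithelium, so the alleles are switched on in epithelial cells and their descendants. In 3 samples the mice had received IPI-926, which blocks Smoothened and with it Hedgehog signalling, by gavage at 40 mg/kg daily for 2 days, and in 3 samples the vehicle HPBCD, hydroxypropyl-beta-cyclodextrin, with tissue taken 2 hours after the final dose. Each sample has its own code in the labels, which say nothing more on how the samples are related or on animal age, so p-values measure the spread between these samples.

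The vehicle libraries held 102399658, 106672146 and 132827800 UMIs (unique molecular identifiers, the count of captured transcripts) and those of IPI-926 mice 100810942, 100891572 and 174929328. The cell filter left 49797 cells in 47 clusters, of which 33 took a class name from marker genes and 14 stayed unnamed. No pair of libraries shared more than 59 barcodes. IPI-926 replicate 3 differed from the other libraries in its clusters: from it came 99.9% of a Crabp1-led fibroblast cluster of 1896 cells, 96.4% of the Ly6c2 monocyte cluster and 99.2% of a macrophage cluster led by Ccl8 and Cxcl9, so values that rest on it are given per library. As a check of the drug, Gli1, a Hedgehog target, stood at 11.2 ± 0.759 scaled CPM in vehicle fibroblasts and 0.713 ± 0.744 in IPI-926 fibroblasts (SD, n = 3 libraries each; log2 fold change -4.91, SE 0.79, edgeR quasi-likelihood adjusted p = 0.887), and Ptch1, the Hedgehog receptor, at 25.5 ± 8.95 against 6.77 ± 3.18 (log2 fold change -1.97, SE 0.51, edgeR adjusted p = 0.887). Both genes kept their groups apart, as did 9.56% of the fibroblast genes tested. Over all kept cells the log2 fold change was -3.64 (SE 0.68) for Gli1 and -0.53 (SE 0.41, groups overlapping) for Ptch1, and Hhip, another Hedgehog target, named after its values were seen, was 1.84 (SE 1.15, groups overlapping) at scaled means of 0.0919 and 0.329 CPM.

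Levels are given as CPM, the depth-scaled share of a gene among all UMIs of a class in a library, always in the order replicates 1, 2 and 3. Classes were built from the same cells, with the 8 members kept out of the clustering genes, so differences between classes are descriptions without a test. A class of a library was used from 20 cells upward.

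Csf1 (ENSMUSG00000014599, minus strand of chromosome 3 from 107741048 to 107760469 on GRCm38) was the most widely expressed ligand, with 33068 UMIs in kept cells. Neutrophils held 254, 462 and 199 CPM in vehicle and 419.7, 407 and 229 CPM in IPI-926. In fibroblasts it stood at 94.9, 240.3 and 39.6 CPM in vehicle and 147, 94.5 and 127 CPM in IPI-926. The neutrophil level was the higher in 6 of 6 libraries, although the ranges of the classes overlapped and vehicle replicate 2 was highest in both. Mesothelial cells, the lining cells of the abdominal cavity, held 73.6, 89.9 and 54.6 CPM in vehicle and 78.9 and 148 CPM in IPI-926 replicates 2 and 3. Fibroblasts and mesothelial cells did not separate, with fibroblasts higher in 3 of 5 libraries. Perivascular cells lay below both, at 15.05 to 45.4 CPM, and did not overlap mesothelial cells. Macrophages and monocytes (7.59 to 26.8 CPM), endothelial cells (5.84 to 21.996 CPM) and ductal epithelial cells (7.78 to 20.4 CPM) overlapped one another.

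The order of Csf1 depended on the scale, because neutrophils carry little RNA. Counted as UMIs per cell, the median over libraries was 0.599 in neutrophils and 3.10 in fibroblasts, where the median cell held 1478.25 and 22096.75 UMIs in all. As a share of transcripts neutrophils stood above fibroblasts, and as transcripts per captured cell they stood below. Mesothelial cells had a median of 2.22 UMIs per cell, in a range of 0.811 to 3.38 that overlapped the 0.453 to 5.97 of fibroblasts. Fibroblasts supplied 52.6% of all Csf1 UMIs when libraries were pooled, yet their share ran from 4.45% in IPI-926 replicate 2 to 83.8% in IPI-926 replicate 3. Neutrophils supplied 44.0% and 37.1% in IPI-926 replicates 1 and 2 and 0.331% in IPI-926 replicate 3. In vehicle replicate 3 the largest share, 62.5%, came from ductal cells, which were 36.2% of its cells. In vehicle replicate 1 unnamed clusters held 836 of 2406 Csf1 UMIs and mesothelial cells 618. Ductal cells held 424 there, fibroblasts 198 and neutrophils 167. Which class supplied most Csf1 thus differed from tumour to tumour.

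Within neutrophils, Csf1 followed the cell state. A cluster led by Hcar2, a niacin receptor, and the chemokine Ccl3 held 427 and 1066 CPM in vehicle replicates 1 and 2 and 520.3 and 697 CPM in IPI-926 replicates 1 and 2. The cluster led by Mmp9 and Siglecf, genes of tumour-resident neutrophils, ranged from 238 to 726 CPM. The G0s2 and Cxcr2 cluster, richer in genes of blood neutrophils, ranged from 122 to 446 CPM. Immature neutrophils with the granule genes Ngp and Camp held 11.2 CPM, from 6 UMIs, in the only library with enough of them. In the 4 libraries that held both, the Hcar2 cluster exceeded the G0s2 cluster each time.

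**Figure D1:**
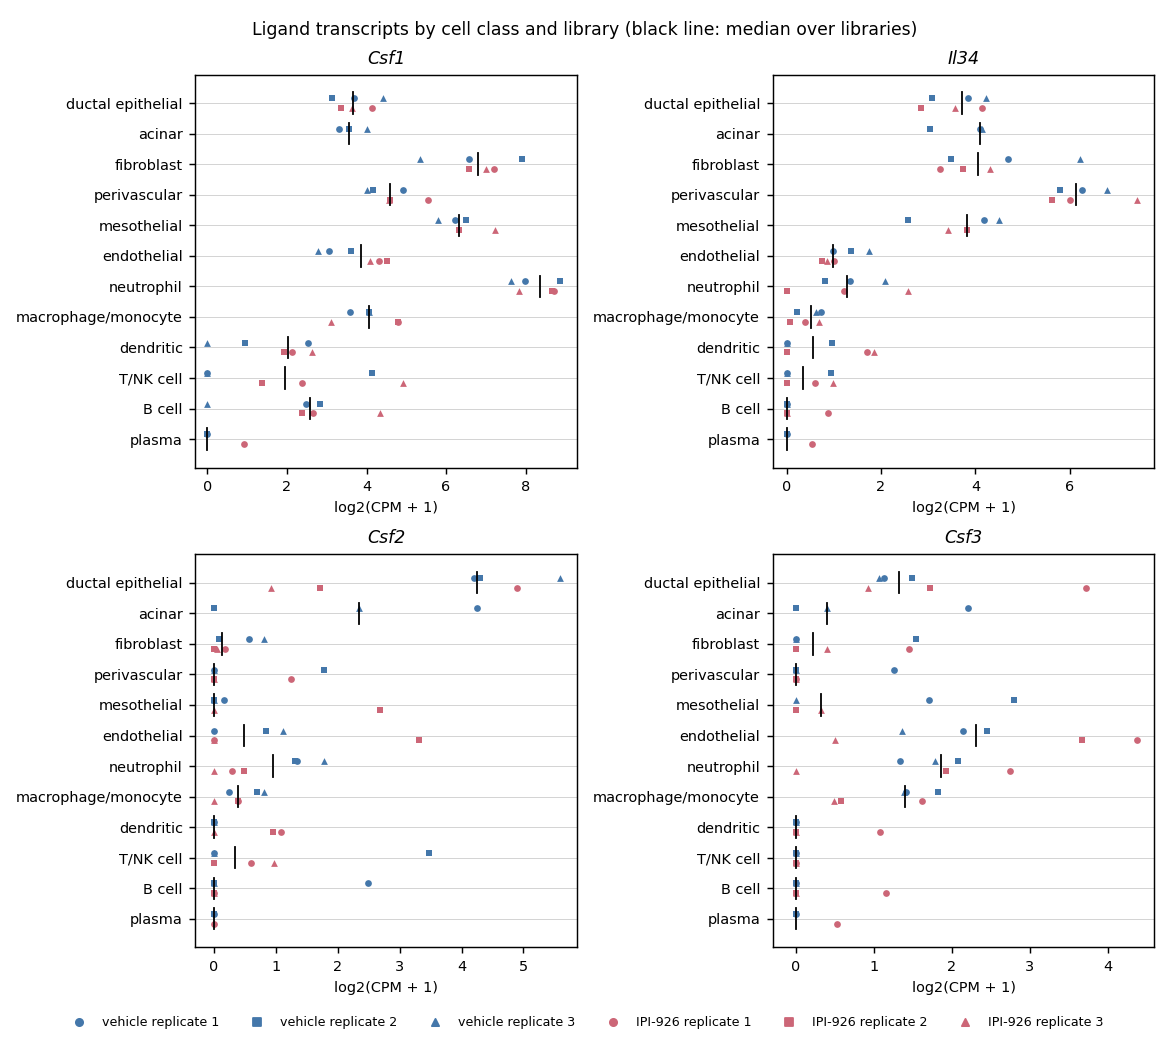
Ligand transcripts by cell class. Each panel is a ligand, the horizontal axis is log2(CPM + 1), points are libraries (blue vehicle, red IPI-926, shape by replicate) and the black line is the median over libraries with at least 20 cells. Csf1 is highest in neutrophils and fibroblasts, Il34 in perivascular cells at 48.5 to 171 CPM, and Csf2 in ductal cells.

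Il34 (ENSMUSG00000031750, chromosome 8, 110741829 to 110805924, minus strand), the other CSF1R ligand, had 7324 UMIs and a stromal and epithelial pattern. Perivascular cells held 75.4, 54.8 and 109 CPM in vehicle and 63.3, 48.5 and 171 CPM in IPI-926. This range did not overlap that of acinar cells, whose median, from the 3 vehicle libraries alone, was the next highest. Fibroblasts held 24.9, 10.1 and 73.6 CPM in vehicle and 8.49, 12.4 and 18.8 CPM in IPI-926. Ductal cells held 13.4, 7.40 and 17.6 CPM in vehicle and 16.5, 6.23 and 10.8 CPM in IPI-926. Vehicle replicate 3 stood out among the fibroblasts and lay within the perivascular range, while the ductal groups overlapped. The ranges of fibroblasts, mesothelial cells, acinar cells and ductal cells overlapped. Within libraries, acinar cells exceeded fibroblasts in 0 of the 3 libraries with both. Fibroblasts exceeded mesothelial cells in 4 of 5, and mesothelial cells exceeded ductal cells in 3 of 5. Ductal cells, in contrast, exceeded neutrophils in 6 of 6 libraries with no overlap, and macrophages were at most 0.645 CPM.

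Because perivascular cells were few (410 in all), they supplied 3.63% of Il34 UMIs, against 32.5% from ductal cells and 31.6% from fibroblasts. Unnamed clusters held 646 of 1391 UMIs in vehicle replicate 1 and 325 of 705 in vehicle replicate 2. In IPI-926 replicates 1 and 2 the unnamed clusters held 297 of 477 and 278 of 588. No named class held more in any of these libraries. Vehicle replicate 3 held 1382 of the ductal UMIs. Of the fibroblast UMIs, 1709 of 2318 came from the Crabp1 cluster of IPI-926 replicate 3. Among ductal clusters, the Gc and Lcn2 cluster held 26.7, 39.7 and 25.6 CPM in the vehicle libraries. The Csf2-expressing cluster described next held 25.2 to 30.004 CPM in the 4 libraries with enough cells. By level, then, Csf1 was led by neutrophils and fibroblasts and Il34 by perivascular cells.

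Csf2 (ENSMUSG00000018916, chromosome 11, 54247271 to 54249667, minus strand), which encodes GM-CSF, had 6239 UMIs and its highest median among named classes in ductal epithelial cells. Ductal cells held 17.3, 18.6 and 47.1 CPM in vehicle and 28.7, 2.29 and 0.891 CPM in IPI-926. IPI-926 replicate 1 lay within the vehicle range, and IPI-926 replicates 2 and 3 lay below it. Ductal cells supplied 77.4% of the pooled UMIs and unnamed clusters 20.3%, but vehicle replicate 3 held 3702 of the ductal UMIs. By library the ductal share was 90.7%, 44.0% and 97.3% in vehicle and 14.99%, 19.1% and 42.1% in IPI-926, and the unnamed share 6.94%, 51.2% and 1.63% in vehicle and 83.2%, 74.4% and 10.5% in IPI-926. Unnamed clusters thus supplied more than named ductal cells in vehicle replicate 2 and IPI-926 replicates 1 and 2. Among those unnamed clusters was 1 led by Mcpt8 and Acan, with 6 ductal markers detected. T and NK cells, a known source of GM-CSF in inflammation, held 18 UMIs in all, 11 of them in vehicle replicate 2.

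Most ductal Csf2 came from 1 cluster of 1128 cells, whose leading genes included Csf2 itself, Krt17, a basal-type keratin, and Pthlh, which encodes parathyroid hormone-related protein. It held 98.1 CPM in vehicle replicate 1 (259 cells), 278 CPM in vehicle replicate 2 (24 cells), 146 CPM in vehicle replicate 3 (793 cells) and 60.7 CPM in IPI-926 replicate 1 (34 cells). IPI-926 replicates 2 and 3 had only 13 and 5 such cells, with 54 and 7 Csf2 UMIs. The gastric-type cluster led by Gkn1 and Tff2 reached at most 1.73 CPM, and the Gc and Lcn2 cluster at most 6.17 CPM. A small cluster of 70 cells led by Npy in vehicle replicate 3 held 23.9 CPM. The 2 libraries with the lowest ductal level were those with the fewest cells of the Krt17 cluster. The unnamed cluster led by Mcpt8, Pvt1 and Acan held 7.95, 20.5 and 9.66 CPM in vehicle and 8.87 and 27.4 CPM in IPI-926 replicates 1 and 2. Its median of Epcam, a ductal marker, was 2150 CPM in cells with a Csf3 UMI and 2176 CPM in those without. In the Krt17 cluster Epcam was at 2836 CPM in cells with a Csf2 UMI and 2669 CPM in those without. The divide between ductal and unnamed sources thus depends on the naming rule.

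Several cytokine genes were higher in cells of the Krt17 cluster with a Csf2 UMI than in those without. The 443 cells with Csf2, over 4 libraries with at least 5 such cells, held a median of 233 CPM of Cxcl1, a neutrophil chemoattractant, against 91.6 CPM in cells without. For Il11, an interleukin-6 family cytokine, the medians were 20.3 against 3.28 CPM. Il1a, an alarmin that induces CSF genes in neighbouring cells, held 22.95 against 11.6 CPM, and Nfkbia, a feedback gene of NF-kB, 315 against 203 CPM. Each of these was higher in 4 of 4 libraries, as were Cxcl2, Tnfaip3 and Csf3. Cxcl5, at 26.5 against 35.7 CPM, and Csf1, at 41.4 against 39.5 CPM, were each higher in 2 of 4, as was Epcam. Cells with Csf2 were deeper, at a median of 34780 UMIs against 19315.2, and the part of depth in these differences was not tested.

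Csf3 (ENSMUSG00000038067, chromosome 11, 98701263 to 98703629, plus strand), encoding G-CSF, was the rarest member at 2108 UMIs. Among named classes endothelial cells had the highest median: 3.43, 4.46 and 1.56 CPM in vehicle and 19.8, 11.7 and 0.408 CPM in IPI-926. Ductal cells held 1.18, 1.80 and 1.10 CPM in vehicle and 12.2, 2.29 and 0.891 CPM in IPI-926. In both classes IPI-926 replicates 1 and 2 were above every vehicle library and IPI-926 replicate 3 was below them. Counts were small, with 40 and 17 endothelial UMIs in the former and 1 in the latter.

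Of the pooled Csf3 UMIs, 67.7% lay in unnamed clusters. By library their share was 71.2%, 53.8% and 16.03% in vehicle and 83.4%, 67.9% and 12.5% in IPI-926, and in vehicle replicate 3 ductal cells held 65.6%. The Mcpt8 and Acan cluster contributed 12.6, 9.59 and 4.83 CPM in vehicle and 15.8 and 8.83 CPM in IPI-926 replicates 1 and 2. Its cells with Csf3, 459 in number, also held more Csf2, at a median of 15.85 against 9.17 CPM, in 5 of 5 libraries, and were deeper (69107.5 against 41279.5 UMIs). The other source was a cluster led by Cxcl13 and Pappa with 8 fibroblast markers detected. It held 17.5, 5.61 and 2.12 CPM in vehicle, and 0, 25.6 and 1.40 CPM in IPI-926. There, the 85 cells with Csf3 held a median of 1054 CPM of Cxcl1 against 442 CPM, and 13890.4 CPM of Saa3, an acute-phase protein, against 5218 CPM, in 3 of 3 libraries. Pdgfra was also higher in 3 of 3, at 387 against 177 CPM, and Epcam in 1 of 3, at 9.66 against 16.55 CPM. Cxcl2 was higher in 1 of 3 and Il1a in 0 of 3. The part of fibroblast identity in these differences was not tested. The depth of these cells was the lower one, 21092 against 26210 UMIs. In both unnamed clusters, cells with Csf3 held more Nfkbia in every library examined. The medians were 196 against 182 CPM in the Mcpt8 and Acan cluster and 802 against 482 CPM in the Cxcl13 and Pappa cluster. In the Mcpt8 and Acan cluster Saa3 was higher in 5 of 5 libraries, and Cxcl1, Cxcl2 and Tnfaip3 in 4. Cxcl5 was higher there in 3, Lcn2 and Csf1 in 2, and Il1a in 1.

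**Figure D2:**
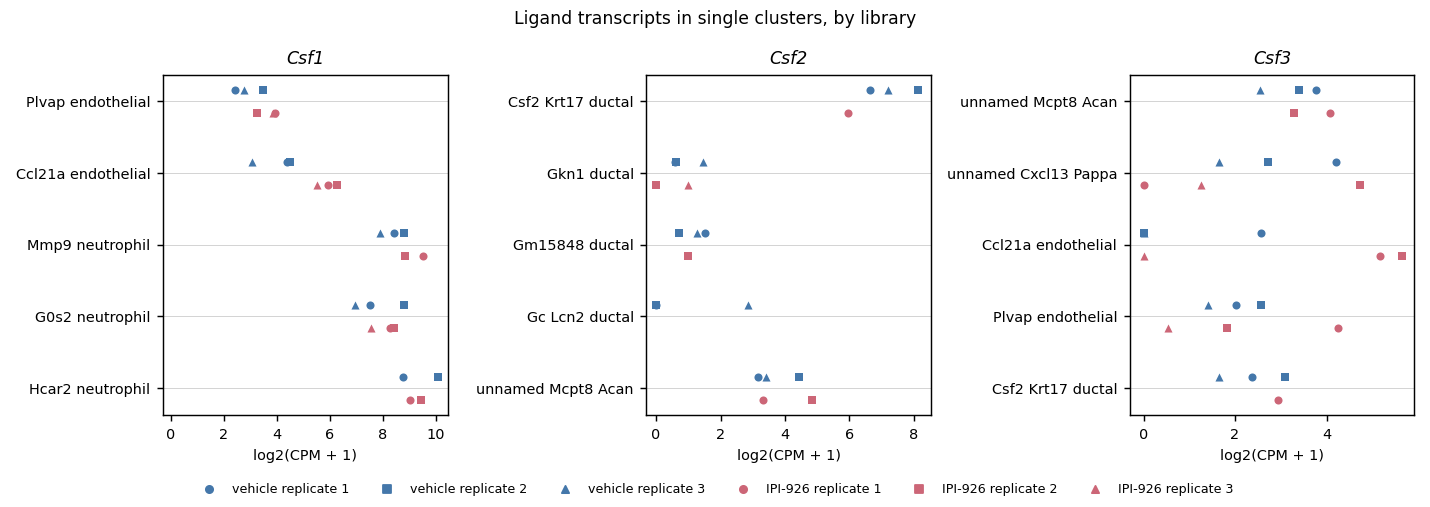
Csf1, Csf2 and Csf3 in single clusters. The horizontal axis of each panel is log2(CPM + 1), and points are libraries with at least 20 cells of a cluster (blue vehicle, red IPI-926, shape by replicate). Csf1 is higher in the Hcar2 neutrophils than in the G0s2 neutrophils of each library with both, Csf2 is highest in the Krt17 ductal cluster (60.7 to 278 CPM), and Csf3 varies widely between libraries of a cluster.

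**Figure D3:**
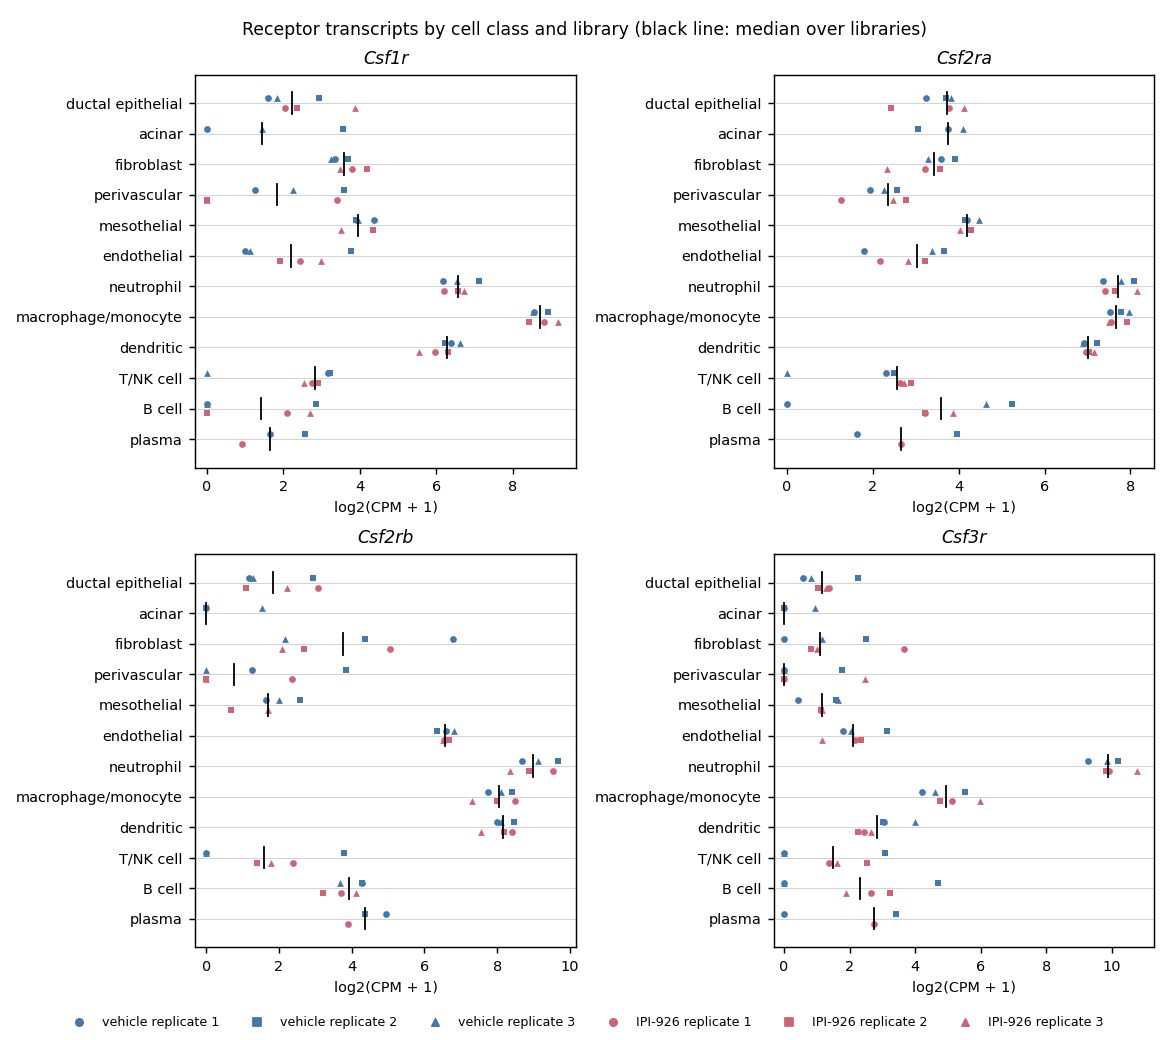
Receptor transcripts by cell class. The horizontal axis of each panel is log2(CPM + 1), points are libraries (blue vehicle, red IPI-926, shape by replicate) and the black line is the median. Csf1r is highest in macrophages and monocytes, Csf3r in neutrophils, and Csf2rb is seen in all myeloid classes and at 80.3 to 111 CPM in endothelial cells.

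Csf1r (ENSMUSG00000024621, chromosome 18, 61100598 to 61132149, plus strand) was the most abundant member by UMIs, 54092 in all, and marked the macrophage lineage. Macrophages and monocytes held 377, 485 and 365 CPM in vehicle and 451, 340.4 and 579.7 CPM in IPI-926, and supplied 86.0% to 89.3% of the UMIs of every library. Neutrophils held 71.5, 136 and 92.1 CPM in vehicle and 71.8, 94.4 and 105 CPM in IPI-926. Dendritic cells held 46.0 to 96.6 CPM. Neither neutrophils nor dendritic cells overlapped macrophages, and those 2 classes did not separate from each other. T and NK cells held at most 8.30 CPM. The summed macrophage marker list in neutrophils was 1953.39 to 2866.82 CPM in vehicle and 1283.31 to 2672.57 CPM in IPI-926, with none of its 16 genes at 0, against 27407.3 to 49722 CPM in macrophages. The part of macrophage RNA in the neutrophil value was not tested.

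Csf1r varied among macrophage states. The Ccl8 and Cxcl9 cluster of IPI-926 replicate 3 held 738 CPM. The cluster led by Retnla and Mgl2, genes of alternatively activated macrophages, held 413 to 702 CPM, and the Marco and Arg1 cluster 241 to 377 CPM. In each of the 5 libraries with both, the Retnla cluster was the higher. A cluster of 371 cells led by Camp, Ngp and Elane, neutrophil granule genes, and by histone genes held 114 to 295 CPM. It had 10 macrophage and 4 neutrophil markers detected and none of the former among its leading genes, so its place in the macrophage class is uncertain. An unnamed cluster led by the mast cell and granule genes Cma1, Cpa3 and Mpo, with 8 macrophage markers detected, held 178 to 349.5 CPM.

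Csf2ra (ENSMUSG00000059326, chromosome 19, 61223957 to 61228429, minus strand), the ligand-specific chain for GM-CSF, had overlapping levels in neutrophils and macrophages. Neutrophils held 163, 271 and 219.8 CPM in vehicle and 169, 198 and 284 CPM in IPI-926. Macrophages and monocytes held 183, 219 and 249 CPM in vehicle and 186, 243 and 179.6 CPM in IPI-926. Dendritic cells were lower, at 119 to 148 CPM. The remaining classes stayed at or below 37.3 CPM. By UMIs per cell the medians were 1.99 in macrophages and 0.325 in neutrophils, and macrophages supplied 72.1% of the pooled UMIs.

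Csf2rb (ENSMUSG00000071713, chromosome 15, 78325752 to 78353847, plus strand) encodes the common beta chain. Mice carry a second copy beside it, Csf2rb2 (ENSMUSG00000071714, chromosome 15, 78282507 to 78305721, minus strand), whose product serves interleukin-3 alone. In the GENCODE vM21 transcripts the coding sequences, 2691 and 2637 bases long, were 95.54% identical over 2626 aligned bases. The last 500 transcript bases, where a 3′ library reads, were less alike at 88.43%. None of the 410 windows of 91 bases in that stretch of Csf2rb occurred in Csf2rb2, against 387 of 4674 over the whole transcript, so reads at the transcript end carry differences that tell the copies apart while reads from farther upstream need not. The end of the coding sequence, shown 5′ to 3′ for coding bases 2578 to 2637 of both genes with the 5 differing bases in capitals, shows how close they are; the Csf2rb2 stretch ends with its stop codon while Csf2rb reads on.
Csf2rb: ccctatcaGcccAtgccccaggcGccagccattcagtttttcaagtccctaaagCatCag
Csf2rb2: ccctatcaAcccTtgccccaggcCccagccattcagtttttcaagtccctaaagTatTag

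Neutrophils had the highest median Csf2rb level in CPM, with 411, 817 and 552 CPM in vehicle and 734, 466 and 323 CPM in IPI-926. Macrophages and monocytes held 212, 338 and 276 CPM in vehicle and 360.0, 256 and 157 CPM in IPI-926. Dendritic cells held 186 to 351 CPM and overlapped macrophages throughout. The neutrophil range overlapped those of both classes, although neutrophils exceeded dendritic cells in 6 of 6 libraries. Counted as UMIs per cell the order turned, with medians of 0.879 in neutrophils, 2.15 in dendritic cells and 3.32 in macrophages. Outside the myeloid cells, endothelial cells held 95.1, 80.3 and 111 CPM in vehicle and 92.0, 102 and 90.5 CPM in IPI-926. The SD over the 6 libraries was 10.6 CPM, against 60.1 CPM in dendritic cells, and T and NK cells held at most 12.9 CPM. The Plvap endothelial cluster carried it, at 82.6 to 127 CPM, and the cluster led by Ccl21a, Mmrn1 and Prox1, known lymphatic genes, held 0 to 58.8 CPM. Endothelial cells were at most 11.5 CPM for Csf2ra, so the beta chain was present there with little of the GM-CSF alpha chain.

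The copies differed in where they were used, judged by the ratio of Csf2rb2 to Csf2rb UMIs. Tag counts are not scaled by length, so the ratio is compared between classes and not read as one gene exceeding the other. Its median over libraries was 0.146 in neutrophils (0.031 to 0.176), 0.258 in macrophages (0.201 to 0.288) and 0.292 in dendritic cells (0.235 to 0.483). In endothelial cells it was 0.838 (0.655 to 1.212), above every library of those 3 myeloid classes. Dendritic cells were mixed: the cluster led by Siglech, a plasmacytoid dendritic cell gene, had a ratio of 1.049 (0.893 to 1.590, 3 libraries, 130 Csf2rb UMIs), and the Ccl22 and Ccr7 cluster 0.234 (0.168 to 0.266). Csf2rb2 itself stood at 76.4, 70.1 and 105 CPM in vehicle endothelium and 64.3, 66.7 and 109.6 CPM in IPI-926 endothelium.

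**Figure D4:**
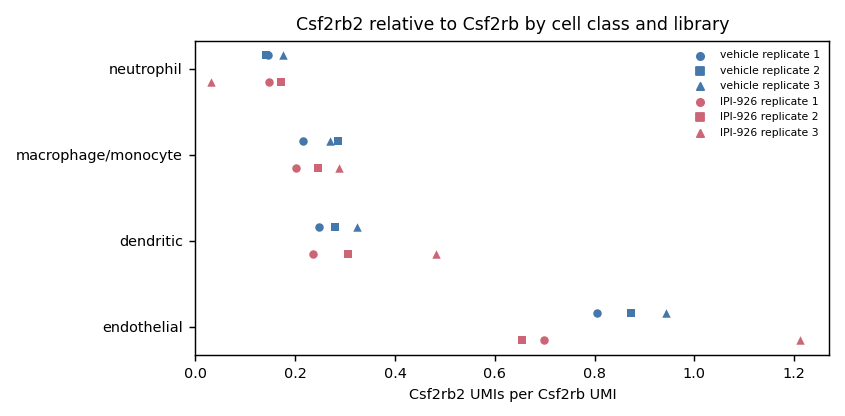
Csf2rb2 UMIs per Csf2rb UMI in 4 cell classes. Each point is a library with at least 20 cells and 20 Csf2rb UMIs of that class (blue vehicle, red IPI-926, shape by replicate). All endothelial points, 0.655 to 1.212, lie to the right of the neutrophil, macrophage and dendritic points, which reach 0.483.

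Csf2rb in fibroblasts was uneven, at 110.2, 19.6 and 3.50 CPM in vehicle and 32.4, 5.42 and 3.21 CPM in IPI-926. In the fibroblast cluster led by Sfrp1, cells with at least 2 Csf2rb UMIs were 27 of 174 in vehicle replicate 1, 61 of 757 in vehicle replicate 2, 45 of 294 in IPI-926 replicate 1 and 0 of 348 in vehicle replicate 3. The 27 cells of vehicle replicate 1 held no UMI of Ptprc, the pan-leukocyte gene, none of S100a9, a neutrophil gene, and 239 CPM of Pdgfra, a fibroblast gene. Their Cxcl13, a B cell chemokine, stood at 2056 against 82.2 CPM in cells with no Csf2rb UMI, and Cxcl12 at 2266 against 147 CPM. Cells with 1 Csf2rb UMI were in neither group, here and in the comparisons that follow. In IPI-926 replicate 1 the cells with Csf2rb held 3739 CPM of S100a9 against 435 CPM, and in vehicle replicate 2 they held 541 against 39.1 CPM. IPI-926 replicate 3 had 13 such cells of 53, with no S100a9 or Cxcl13. Over these 4 libraries and 146 cells, Ptprc was higher in the cells with Csf2rb in 3 of 4, Cxcl13 in 3 of 4, Pdgfra in 3 of 4 and Cxcl12 in 4 of 4. The part of leukocyte RNA in fibroblast Csf2rb was not tested.

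Csf3r (ENSMUSG00000028859, chromosome 4, 126024550 to 126044440, plus strand) encodes the G-CSF receptor and was highest in neutrophils. Neutrophils held 619, 1173 and 927 CPM in vehicle and 971, 912 and 1732 CPM in IPI-926. Macrophages and monocytes followed at 17.4, 44.5 and 23.3 CPM in vehicle and 33.6, 26.3 and 62.4 CPM in IPI-926. No other named class had a median above 6.15 CPM. The G0s2 and Cxcr2 neutrophils held 949.8 to 1751 CPM, the Mmp9 and Siglecf neutrophils 457 to 1018 CPM and the Hcar2 neutrophils 275 to 991 CPM. In every library with both, the G0s2 cluster held more Csf3r than the Hcar2 cluster, the opposite of Csf1. Among macrophages and monocytes, the Ifitm6 and F13a1 monocyte cluster held 50.5 to 158 CPM and the Marco cluster 12.7 to 26.1 CPM. In IPI-926 replicate 3, which had 1.38% neutrophils, macrophages and monocytes supplied 72.2% of Csf3r UMIs, against 8.53% to 29.8% elsewhere.

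Some genes had class patterns close to a member's, by Pearson r over the 12 class medians of log2(CPM + 1), given as a description over classes that share libraries. For Csf1r the closest were Clec4a3 (r = 0.96), Fcgr3 (0.96) and Ccl9 (0.95), and for Csf2ra Clec4n (0.98), Lpcat2 (0.98) and Ifitm6 (0.97). For Csf2rb they were Pik3r6 (0.96), Sgk3 (0.94) and its copy Csf2rb2 (0.92), and for Csf3r F630028O10Rik (0.97), Mcl1 (0.96) and Trem3 (0.96). Among ligands, Csf1 was followed by Hacd2 (0.92), Sra1 (0.90) and Ndufaf7 (0.89), and Il34 by Dzip1l (0.98), Slc4a3 (0.98) and Bdnf (0.97). Csf2 was followed by Sox21, Gm9926 and Ptprt (each 0.99 or above), and Csf3 by Bmx (0.95), Lrg1 (0.94) and Nos2 (0.93).

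IPI-926 did not move any member past the threshold. In 37 fits of the 8 members over 8 classes, 0 passed an adjusted p of 0.05 (edgeR quasi-likelihood test, Benjamini-Hochberg over all genes of a class), 1 had an unadjusted p under 0.05, and DESeq2 called 0. The lowest adjusted p was 0.545, and 20 of the 37 log2 fold changes were above 0, with a median of 0.05. Of the 37, 1 had groups of scaled CPM that did not overlap, a state reached by 7.73% of all genes in dendritic, 7.2% in ductal, 10.1% in endothelial, 9.56% in fibroblast, 5.45% in macrophage, 27.2% in mesothelial, 12.5% in neutrophil and 7.03% in perivascular cells. Over all kept cells 0 of 8 passed, and 0 had an unadjusted p under 0.05. The background was as sparse: 0% of genes were called in dendritic, ductal, endothelial, fibroblast, macrophage and perivascular cells and over all cells, 0.00924% in mesothelial cells (Nkx2-3) and 0.0119% in neutrophils (Gkn2). Gkn2 is among the leading genes of the gastric-type ductal cluster. Its scaled means in neutrophils were 117 CPM in vehicle and 0.416 CPM in IPI-926. Gkn2 was also called in B cells (116 against 0 CPM) and in T and NK cells (97.5 against 1.85 CPM). The part of stray epithelial RNA in these calls was not tested. Among all tested genes, 392 in endothelial cells and 690 over all cells had an unadjusted p under 0.05. A p above the threshold does not show that levels were equal, and the intervals are wide.

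The 1 member with a small unadjusted p was Csf1 in endothelial cells. It stood at 7.35, 11.3 and 5.84 CPM in vehicle and 18.8, 21.996 and 15.9 CPM in IPI-926, from 15 to 43 UMIs per library. Every IPI-926 library was above every vehicle library, as was the case in one direction or the other for 10.1% of the endothelial genes tested. The log2 fold change was 1.22 (SE 0.33, edgeR adjusted p = 0.982), between scaled means of 8.15 ± 3.1999 and 19.5 ± 3.36 CPM (SD, n = 3). In the Ccl21a and Prox1 cluster the values were 19.6, 21.4 and 7.26 CPM against 59.7, 76.7 and 44.2 CPM, with 1 to 22 UMIs per library. The 10.1% covers the whole class, and no such share is given for a single cluster. In the larger Plvap cluster the groups overlapped, at 4.28, 10.2 and 5.76 CPM against 14.3, 8.56 and 13.3 CPM. The neutrophil marker list summed to 105.5 to 341 CPM in vehicle endothelium and 92.9 to 818 CPM in IPI-926 endothelium, with none of 16 genes at 0, and its part was not tested. The Csf1 response did not separate fibroblasts from endothelial cells (log2 difference -0.88, SE 0.46, limma adjusted p = 0.981, with 0% of the 9956 genes called).

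Csf2 over all kept cells was the other value without overlap: 7.51, 8.09 and 32.8 CPM in vehicle and 5.56, 5.15 and 0.126 CPM in IPI-926, as for 7.36% of genes over all cells. The log2 fold change was -2.15 (SE 1.25, edgeR adjusted p = 1.0), and without vehicle replicate 3 it was -1.05. In ductal cells the groups overlapped, with scaled means of 28.3 ± 17.5 and 10.2 ± 14.9 CPM (log2 fold change -1.66, SE 1.17, edgeR adjusted p = 1.0). Without IPI-926 replicate 1, which had 63 ductal cells, the value was -4.09, and without vehicle replicate 3 it was -0.97. The ductal share of cells was 17.8%, 4.81% and 36.2% in vehicle and 0.855%, 10.4% and 4.61% in IPI-926. That share differed by -14.3 percentage points (two-sided exact permutation p = 0.2, 0.48 after adjustment over 12 classes), in a design that cannot go below 0.1. The unnamed Mcpt8 and Acan cluster is outside the ductal share, and 773 of its 1400 cells lay in IPI-926 replicate 1. Vehicle replicate 3 had both the most ductal cells, 2503, and the highest level, while IPI-926 replicate 1 with 63 ductal cells stood above IPI-926 replicate 3 with 652. The part of the ductal share in the level over all cells was not tested.

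The other ligands gave values within their spread. Csf1 in neutrophils had a log2 fold change of 0.47 (SE 0.38), in mesothelial cells 0.72 (SE 0.32, 2 IPI-926 libraries) and in macrophages 0.59 (SE 0.47), and in fibroblasts 0.01 (SE 0.63), whose sign turned under several settings. Il34 was 0.12 (SE 0.46) in perivascular cells and -1.35 (SE 0.72) in fibroblasts, and -0.31 in fibroblasts without vehicle replicate 3. Csf3 was 1.73 (SE 1.02) in endothelial cells and 1.74 (SE 0.91) in ductal cells. Without IPI-926 replicate 1 these were 0.83 and 0.23. The adjusted p-values of these 8 fits (edgeR) ran from 0.545 to 1.0.

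Among the receptors, Csf1r had a log2 fold change of 0.22 (SE 0.25) in macrophages and monocytes, 0.05 (SE 0.30) in neutrophils and -0.34 (SE 0.31) in dendritic cells. Leaving out IPI-926 replicate 3 brought the macrophage value to 0.01. Its response did not separate macrophages from neutrophils (log2 difference 0.09, SE 0.23, limma adjusted p = 0.927, with 0% of 8327 genes called). Csf2ra was -0.03 (SE 0.24) in macrophages and 0.19 (SE 0.31) in neutrophils. Csf2rb was 0.05 (SE 0.40) in neutrophils, -0.04 (SE 0.33) in macrophages and 0.06 (SE 0.16) in endothelial cells. In fibroblasts Csf2rb was -1.58 (SE 1.33), and 0.29 without vehicle replicate 1. Csf3r was 0.63 (SE 0.37) in neutrophils, 0.33 without IPI-926 replicate 3, and 0.59 (SE 0.43) in macrophages. None of these edgeR fits passed. Neutrophil markers in macrophages summed to 5547.11 to 10692.89 CPM in vehicle and 1277.99 to 9595.73 CPM in IPI-926, and their part in the Csf3r value there was not tested.

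**Figure D5:**
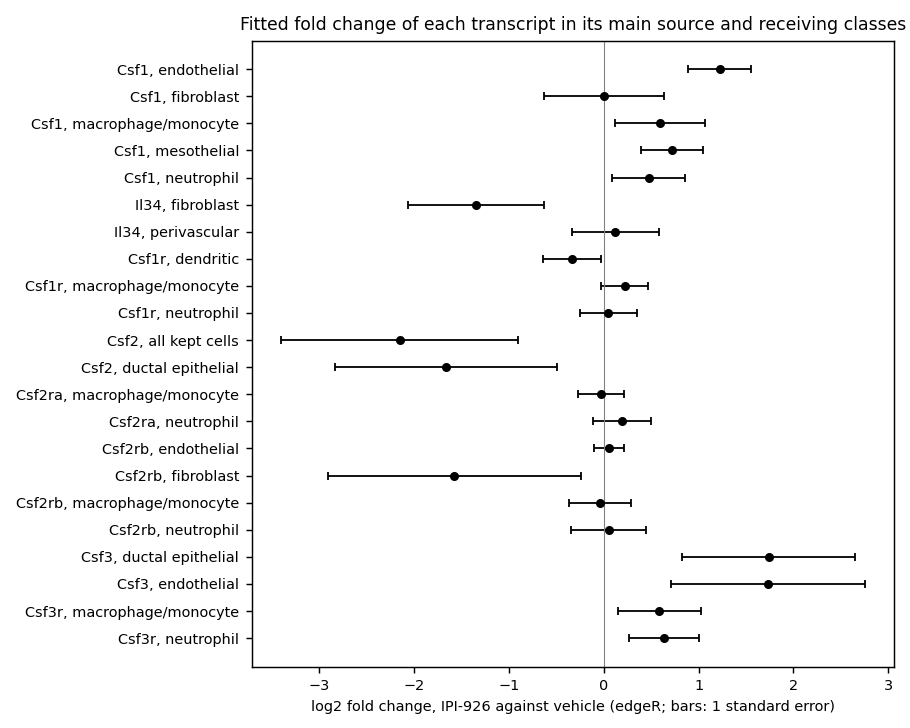
Fitted fold change of each transcript in its main source and receiving classes. The horizontal axis is the log2 fold change, IPI-926 minus vehicle, points are edgeR estimates and bars are 1 SE. Csf1 in endothelial cells (1.22) is the value farthest from 0 relative to its error, and no point passed an adjusted p of 0.05.

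The cells that receive the signals also varied between tumours. Neutrophils were 6.05%, 27.0% and 11.7% of kept cells in vehicle and 33.4%, 20.6% and 1.38% in IPI-926 (difference 3.54 points, exact permutation p = 0.8, adjusted 0.9). Macrophages and monocytes were 17.0%, 30.5% and 10.7% in vehicle and 17.3%, 23.6% and 29.8% in IPI-926 (difference 4.13 points, exact permutation p = 0.7, adjusted 0.9). Fibroblasts were 2.64%, 8.82% and 5.05% in vehicle and 3.99%, 0.809% and 13.8% in IPI-926 (difference 0.683 points, exact permutation p = 0.9, adjusted 0.9). Shares spread over a wide range within each group, and the groups overlapped in all 3 classes.

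Genes downstream of the receptors did not pass either, in lists chosen with earlier results of these data known. In macrophages, 0 of 16 genes of CSF1R signal transduction were called by edgeR, 10 had a positive log2 fold change, and their median was 0.11 against 0.01 for all genes tested. The smallest p belonged to Dok1, an adaptor of the kinase (1.06, SE 0.43, groups apart as for 5.45% of macrophage genes). Next was Inpp5d, a phosphatase that limits signalling (0.37, SE 0.29). Without IPI-926 replicate 3, Dok1 was 0.39 and Inpp5d 0.21. Of 10 CSF1-dependent macrophage genes 0 were called and 6 were positive, with Fcgr1, an Fc receptor, at 1.49 (SE 0.75) and Adgre1, which encodes F4/80, at 0.67 (SE 0.38). Fcgr1 is also among the leading genes of the Ly6c2 monocytes that came mostly from IPI-926 replicate 3, and without that library Fcgr1 was 0.09 and Adgre1 0.32. Of 13 genes responsive to GM-CSF 0 were called and 3 were positive, with a median of -0.44. Among these Irf4, a transcription factor of myeloid activation, was -1.20 (SE 0.63) and the chemokine Ccl22 -1.46 (SE 1.27). Without IPI-926 replicate 3 these were -0.80 and -0.92, and without vehicle replicate 2 Ccl22 was 0.81. In dendritic cells 2 of the 9 genes tested from that list were positive.

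In neutrophils, 0 of 11 maturation genes were called and 7 were positive, with a median of 0.36 against -0.03 for all genes. Cxcr2, the chemokine receptor for release from marrow, was 0.52 (SE 0.31) with groups that did not overlap, as for 12.5% of neutrophil genes. Of 9 genes tested for G-CSF receptor signalling 0 were called and 6 were positive, with the kinase Lyn at 0.48 (SE 0.30) and the feedback inhibitor Socs3 at 0.55 (SE 0.41), and 0.31 without vehicle replicate 1. Of 11 tested from the beta chain and STAT5 list 0 were called and 7 were positive. Socs2, a STAT5 target, was -1.37 (SE 0.44, edgeR adjusted p = 0.889) with groups apart, at scaled means of 19.2 ± 6.12 and 8.04 ± 2.36 CPM. Its relative Socs1 was 1.15 (SE 0.66), and 0.25 without IPI-926 replicate 3.

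In fibroblasts, 0 of 15 tested inducers of CSF genes were called and 11 were positive, with a median of 0.05. Cebpb, a transcription factor acting on cytokine genes, was -0.51 (SE 0.23), and -0.31 without vehicle replicate 3. Il1rap, a subunit of the interleukin-1 receptor, was 0.83 (SE 0.66), and 0.29 without IPI-926 replicate 3. Of 5 genes tested for other IL-34 receptors and CSF1 shedding, 0 were called and 3 were positive. Trem2 was -1.05 (SE 0.45), and -0.70 without vehicle replicate 1. Rhbdf2, a regulator of the sheddase ADAM17, was -0.79 (SE 0.49), and -0.37 without IPI-926 replicate 3. In ductal cells 10 of the 15 inducers tested were positive, with a median of 0.15, and 0 were called. Unadjusted p-values under 0.05 numbered 240 in macrophages, 401 in neutrophils, 452 in fibroblasts and 442 in ductal cells among all genes tested.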

How the data were processed

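The authors deposited unnormalized UMI counts by gene and barcode. The matrices were written by cellranger 6.1.2, per the file headers. Cell Ranger 2.1.1 and mm10 stand in the submitters' processing notes. The annotation is not given in the sources used here.

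Barcodes needed 500 UMIs, 300 genes and no more than 20% mitochondrial UMIs, and scored doublets were removed (the top 0.8% per 1000 barcodes). Scanpy 1.11.5 and leidenalg 0.10.2 clustered all libraries together (2000 variable genes, 30 components, resolution 1), without the 8 members. A cluster took the class with the most detected markers, and stayed unnamed with under 3, with more markers of another class among its 10 leading genes, or with a median UMI count below that of its libraries divided by 3 and none of its own markers there. Counts were summed per library and class (at least 20 cells) and tested with edgeR 4.0.16 (TMM, filterByExpr, robust quasi-likelihood) in R 4.3.3. Scaled CPM are after TMM. DESeq2 1.42.0 was an alternative, limma 3.58.1 (prior count 2) compared classes, and shares had exact permutation tests. The rule named all 8 members in their classes, Csf2rb2, Gli1, Ptch1, the 2 genes of smallest p of each list in the class where it belongs, and the 3 genes most like each member; 1 gene so named is not reported here. Members and lists were chosen with earlier results of these data known. Counting error is the only error behind a single UMI count. Gene positions are from GENCODE vM21.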

Additional observations from a re-analysis of the deposited data

How the results depend on the processing

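No paired analysis was possible because the replicate numbers are only accession order and the labels tie no tumour of one group to one of the other. Over 729 alternative fits of a member or Csf2rb2, 0 passed an adjusted p of 0.05, and the lowest adjusted p was 0.267. Counts of called genes moved most. DESeq2 called 4 genes in dendritic, 33 in ductal, 14 in endothelial, 46 in fibroblast, 8 in macrophage, 106 in mesothelial, 12 in neutrophil and 7 in perivascular cells, and 135 over all cells, no member among them. Without the filter on low counts edgeR called 24 in dendritic, 6 in endothelial, 73 in mesothelial, 45 in neutrophil and 37 in perivascular cells. With doublets kept it called 1, 2 and 0 in dendritic, mesothelial and neutrophil cells, and macrophages supplied 85.8% of Csf1r.

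Signs turned in these log2 fold changes. With library size alone they were -0.014 for Csf2rb in endothelial cells, -0.025 for Csf1 in fibroblasts, and in neutrophils -0.22 for Csf2rb, -0.19 for Csf1r and -0.033 for Csf2ra. With equal cells per library they were -0.16 for Csf2rb in endothelial cells, -0.24 for Csf1 in fibroblasts and -0.084 for Csf2rb in neutrophils. Csf1 in fibroblasts was -0.022 with doublets kept, and Csf1r in neutrophils -0.0029 with the stricter cell filter. Without clusters of 1 library, Csf2rb was 0.29 in fibroblasts and 0.048 in macrophages. The cause was not tested.

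Leaving out 1 library at a time, the difference of shares ran from -3.92 to 12.1 points in neutrophils, -0.21 to 9.67 in macrophages and -3.10 to 3.37 in fibroblasts. Called genes ran from 0 to 1 in ductal, 0 to 3 in endothelial, 0 to 1 in macrophage, 0 to 36 (without IPI-926 replicate 2) in mesothelial, 1 to 2 in neutrophil and 0 to 5 in perivascular cells, and from 0 to 278 (again without IPI-926 replicate 2) for the response of fibroblasts minus mesothelial cells. Csf2rb ran from -0.023 to 0.14 in endothelial cells, -3.44 to 0.29 in fibroblasts, -0.29 to 0.22 in macrophages and -0.38 to 0.32 in neutrophils. Csf1 in fibroblasts ran from -0.41 to 0.95, Csf2ra in macrophages from -0.25 to 0.10, Csf1r in neutrophils from -0.091 to 0.27, Il34 in perivascular cells from -0.47 to 0.44, and the Csf1r response of macrophages minus neutrophils from -0.027 to 0.22. Adding an unnamed cluster to the ductal or fibroblast class, or leaving the Camp and Ngp cluster out of the macrophages, both chosen after seeing the data, turned no sign among the members named. Low counts limit Csf3 and Csf1 in endothelial cells.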

Other observations

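Across the 6 libraries, 3 relations between a ligand's level outside its receiving class and the share of that class were computed. They were chosen after the values had been seen, and their p-values do not allow for that choice. The ligand level pools all cells outside the class, so it also moves with the mix of those cells. Csf3 outside neutrophils stood at 3.49, 3.71 and 1.12 CPM in vehicle and 10.1, 4.29 and 0.371 CPM in IPI-926, beside neutrophil shares of 6.05%, 27.0%, 11.7%, 33.4%, 20.6% and 1.38%. Pearson r was 0.82 (exact permutation p = 0.0347, 0.0562 after Benjamini-Hochberg adjustment over the 3) and Spearman rho 0.89 (exact permutation p = 0.0333, adjusted 0.05). Without the 2 libraries farthest from the median, IPI-926 replicates 1 and 3, r was 0.43, so the relation rests on them.

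Csf1 outside macrophages and their share gave r = 0.85 (exact permutation p = 0.0375, adjusted 0.0562) and rho = 0.89 (exact permutation p = 0.0333, adjusted 0.05). Without vehicle replicate 2 and IPI-926 replicate 3 its r was 0.26. Those 2 libraries also had the largest fibroblast shares, 8.82% and 13.8% of kept cells. Csf2 outside macrophages and the macrophage share gave r = -0.69 (exact permutation p = 0.0875, adjusted 0.0875) and rho = -0.37 (exact permutation p = 0.497). Without vehicle replicate 3 and IPI-926 replicate 3 its r was 0.68, a change of sign. The part of the cell mix in these relations was not tested. The groups hold 3 libraries each, too few for a correlation within a group to be given.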
